A study of Homo sapiens with 8 samples.

Results

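The SR splicing factor genes were followed in the human prostate cancer line 22Rv1, which models castration-resistant disease, after treatment with PCC0208017, which the submitters describe as a MARK3 inhibitor. The genes were taken by symbol. They are SRSF1 to SRSF7, SRSF9, SRSF10 and SRSF11, which make 10 of the 58735 genes listed in each library, and all 10 passed the filter on low counts. Total RNA was sequenced in 4 libraries of inhibitor-treated cells (MARK3i) and 4 libraries of cells given DMSO, the vehicle (Control). The groups share the line and differ, per the labels, in the compound alone. The sources used here give no dose, no duration and no word on whether replicates were separate cultures, and p-values therefore measure a spread between libraries that may be technical. All cells come from a single line and no second way of lowering MARK3 activity was included, so inhibition of MARK3 and any other action of the compound cannot be told apart.

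Total counts ranged from 13517289 to 21271127 in MARK3i libraries and from 12672817 to 13386143 in Control libraries. The epithelial genes KRT8, KRT18 and EPCAM were found in both groups, at 552.6, 307 and 99.96 CPM (read counts brought to the same library size) in MARK3i and 592, 418 and 97.8 CPM in Control. The prostate gene KLK3 averaged 0.819 CPM in MARK3i and 21.6 CPM in Control. Markers of leukocytes and endothelium (PTPRC, CD3E, PECAM1, VWF) and the fibroblast gene COL3A1 had at most 4 counts in any library. The fibroblast genes COL1A1 and LUM, from the same list, had up to 479 and 44 counts. ALB, listed as a liver marker, averaged 274 CPM in MARK3i and 716 CPM in Control, COL1A1 averaged 18.0 CPM in MARK3i and 11.3 CPM in Control, and LUM 0.509 CPM in MARK3i and 3.003 CPM in Control. Their part in the results below was not tested.

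SR proteins bind exonic enhancers in pre-mRNA through RNA recognition motifs and recruit the spliceosome through a tail rich in arginine-serine (RS) dipeptides. SRPK kinases phosphorylate this tail in the cytoplasm and CLK kinases do so in the nucleus, and the phosphorylation sets where the proteins reside and what they bind. Many SR genes limit their own output by including a poison exon or retaining an intron, which sends the transcript to nonsense-mediated decay. A gene-level count adds such transcripts to the productive ones.

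Most SR genes were lower in inhibitor-treated cells. Of the 10 genes, 8 were lower, SRSF5 was higher, and SRSF11 did not pass the test (edgeR's quasi-likelihood test, Benjamini-Hochberg adjusted p under 0.05 over all 16452 tested genes). In this comparison 58% of all tested genes were called, 28.3% lower and 29.8% higher. The log2 change, MARK3i minus Control, had a median of −0.30 over the 10 genes and ran between −0.79 (SRSF1) and 0.46 (SRSF5), against a median of 0.02 over all tested genes. In 9 of the 10 genes the libraries of the groups did not overlap, which held for 51% of all tested genes. The changes were modest, since the median absolute log2 change of all called genes was 0.53 and SRSF1 alone among the 10 exceeded it. With total counts in place of TMM scaling, 5 were lower and 2 higher (SRSF5 and SRSF11), and with GC offsets SRSF11 lay below 0.

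**Figure D1:**
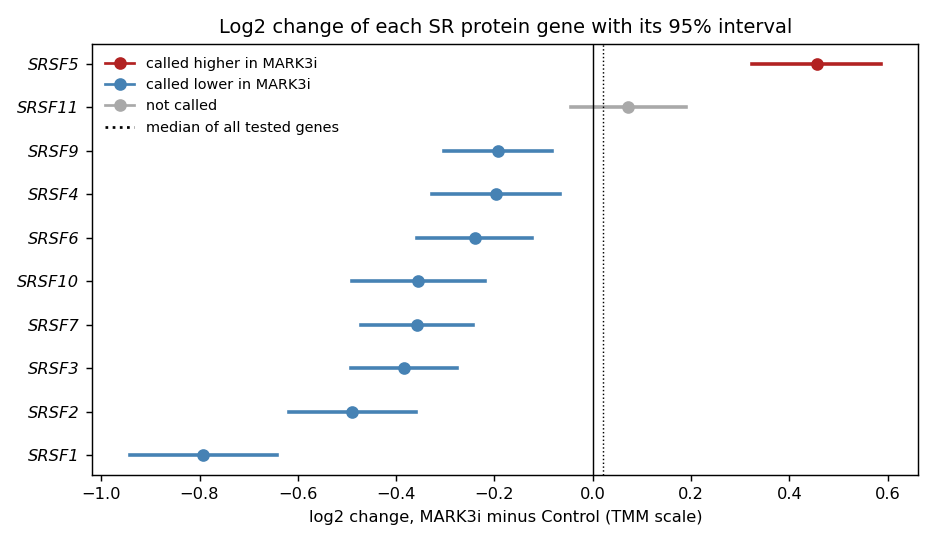
Log2 change (x axis, MARK3i minus Control, TMM scale) of each of the 10 SR protein genes (rows) with its 95% interval from edgeR (n = 4 libraries per group). The intervals of 8 genes lie below 0, that of SRSF5 lies above 0, and that of SRSF11 includes 0.

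The promoters of the most lowered gene, of a pair of lowered export adaptors and of the gene that rose are shown because they set the start regions of genes that moved together beside that of the gene that moved the other way. They are RefSeq stretches of 120 bases ending at the base before the annotated start, on the gene's strand, on GRCh38.p14. SRSF1 lies at chr17:58007247-58007366 (minus strand), SRSF3 at chr6:36594242-36594361 (plus), SRSF7 at chr2:38751362-38751481 (minus, the downstream of its listed starts) and SRSF5 at chr14:69767022-69767141 (plus). The SRSF7 entry was picked because it holds TATAAA, which no other SRSF7 entry does. Capitals mark the TATA box TATAAA, the box known as CCAAT and the ETS core CGGAAG, on either strand.
SRSF1: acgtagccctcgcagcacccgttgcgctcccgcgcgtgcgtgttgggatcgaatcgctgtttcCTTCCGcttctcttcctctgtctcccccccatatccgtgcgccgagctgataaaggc
SRSF3: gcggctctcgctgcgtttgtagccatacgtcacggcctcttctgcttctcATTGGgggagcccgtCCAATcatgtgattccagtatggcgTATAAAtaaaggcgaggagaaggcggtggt
SRSF7: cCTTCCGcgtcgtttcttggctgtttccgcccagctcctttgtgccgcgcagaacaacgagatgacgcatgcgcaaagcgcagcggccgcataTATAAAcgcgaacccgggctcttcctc
SRSF5: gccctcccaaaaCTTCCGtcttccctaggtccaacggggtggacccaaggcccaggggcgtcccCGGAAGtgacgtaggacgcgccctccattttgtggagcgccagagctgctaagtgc

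Motifs were searched on both strands in the full 300-base entries (250 bases before the start and 50 after it), and no motif overlaps another in the stretches shown. Entries were found for 9 of the 10 genes, 11 in all, and SRSF2 was the gene without one. TATAAA was found in SRSF3 from position −30, counted back from the start, in SRSF7 from −27 and, on the opposite strand, in SRSF11 from −206. It occurs in 11.5% of the 35116 promoters in the table. CCAAT was found in SRSF3 alone, from −70 (opposite strand) and −55, and is held by 34.6% of promoters. CGGAAG was found in 6 of the 11 entries, against 19.5% of all promoters. These entries belong to 5 of the 9 genes (SRSF1, SRSF4, SRSF5, SRSF7 and SRSF9), that is to lowered genes and the raised one. The SRSF7 entries among the 6 overlap and hold the same genomic match, which is counted in each of them. In SRSF9 the only CGGAAG match lies after the start, at positions 8 to 13. The E-box CACGTG was in none of the 11 entries and in 7.26% of all promoters, which says only that these letters are not in these windows. The motifs other than CACGTG were chosen after the sequences were seen.

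**Figure D2:**
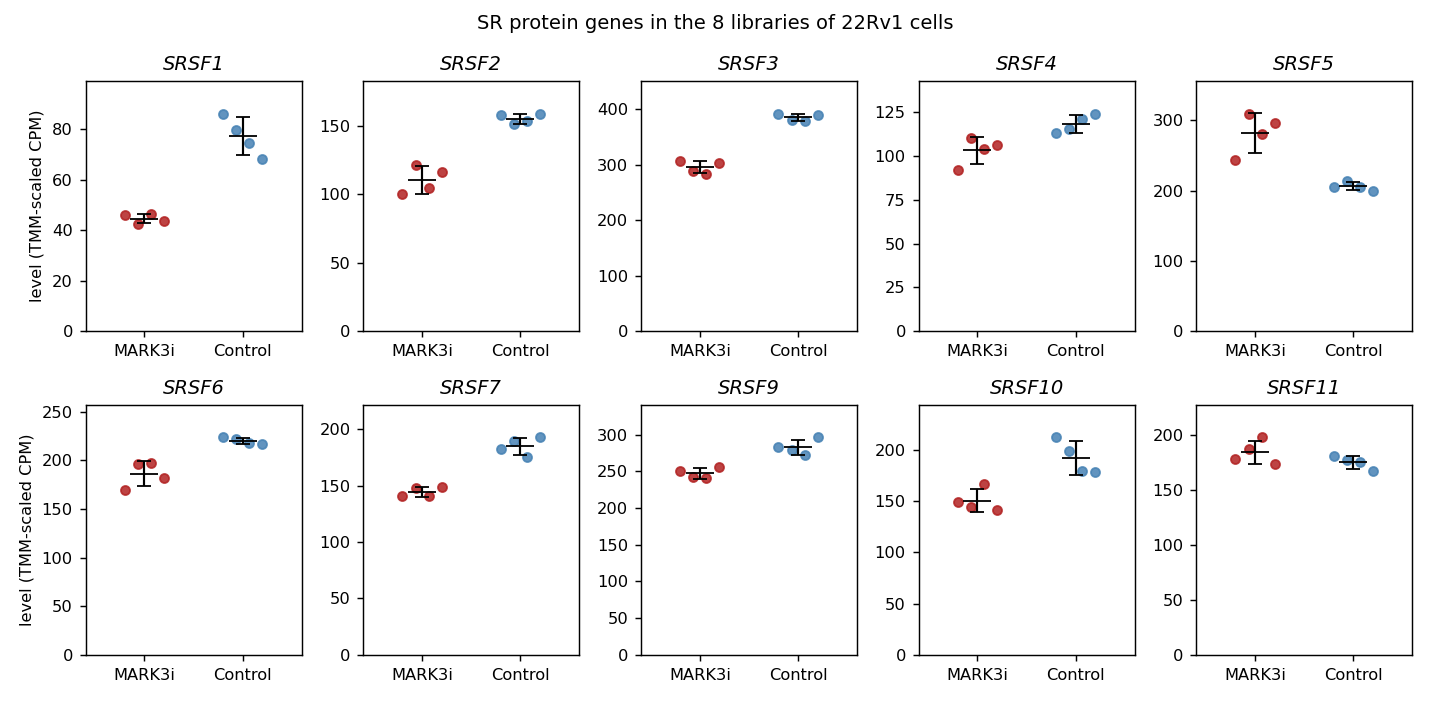
Level of each SR protein gene (y axis, TMM-scaled CPM) in the 4 MARK3i and 4 Control libraries (points, replicates 1 to 4 from left to right), with mean and SD. MARK3i libraries lie below all Control libraries in 8 genes, above them in SRSF5, and overlap them in SRSF11.

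The SR proteins with a pair of RNA recognition motifs, SRSF1, SRSF4, SRSF5, SRSF6 and SRSF9, included both the largest fall and the rise. SRSF1 (ENSG00000136450; chr17:58000919-58007346, hg38, minus strand) encodes the founding SR protein, a splicing activator that also acts in mRNA export and translation and is known as a proto-oncogene. Its levels were 46.0, 42.3, 46.5 and 43.8 CPM in MARK3i replicates 1 to 4, and 86.2, 79.8, 74.5 and 68.4 CPM in Control replicates 1 to 4. The Control libraries were more spread than the treated ones, and the lowest Control library lay well above the highest treated one. SRSF1 fell by 0.79 ± 0.07 on the log2 scale (± SE, adjusted p = 1.22e-09), or 1.73-fold, and 9.23% of tested genes had a lower log2 change.

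SRSF5 (ENSG00000100650; chr14:69726900-69772005, plus strand), known from insulin-stimulated and regenerating liver cells of the rat as an early response gene, was the SR gene that rose. Its levels were 244, 309.7, 280.4 and 296 CPM in MARK3i libraries, against 206, 213, 206 and 199 CPM in Control libraries. MARK3i replicate 1 was the lowest treated library and still lay above every Control library. The log2 change was 0.46 ± 0.06 (adjusted p = 1.16e-06), a 1.37-fold rise, and 81.9% of tested genes had a lower log2 change.

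SRSF4, SRSF6 and SRSF9 had smaller falls. SRSF6 (chr20:43457893-43466046, plus strand), a regulator of alternative exons such as that of tau, had 170.0, 197, 197 and 182 CPM in MARK3i libraries and 224, 222, 218 and 217 CPM in Control libraries, a log2 change of −0.24 ± 0.06 (adjusted p = 0.000863). The Control values were closely spaced, and MARK3i replicate 1 was the lowest library. SRSF4 (chr1:29147743-29181900, minus strand), which carries a long RS tail, had 92.1, 110.0, 104 and 106 CPM in MARK3i libraries and 113, 115, 121 and 124 CPM in Control libraries (−0.20 ± 0.06, adjusted p = 0.00963). MARK3i replicate 2 was close to the lowest Control library, without overlap.

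SRSF9 (chr12:120461672-120495946, minus strand), whose RS tail is short, had 251, 242, 240.5 and 256 CPM in MARK3i libraries and 283, 279, 272 and 296 CPM in Control libraries (−0.19 ± 0.05, adjusted p = 0.00315). The calls for SRSF4, SRSF6 and SRSF9 ended under total-count scaling, where the log2 changes were −0.091, −0.134 and −0.088 (adjusted p = 0.234, 0.0544 and 0.115). Total-count scaling moved the median change of all tested genes to 0.126, against 0.021 with TMM. Relative to that median, SRSF4 was at −0.218 with TMM and −0.217 with total counts, SRSF6 at −0.261 and −0.260, and SRSF9 at −0.214 under both. A change of library scaling moves all genes by nearly the same amount, so this match was fixed in advance and adds no support. With GC offsets the 3 genes were at −0.309, −0.363 and −0.291, further below 0 than with TMM.

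Among the SR proteins with a single RNA recognition motif, SRSF2, SRSF3, SRSF7 and SRSF10 fell. SRSF2 (chr17:76734115-76737333, minus strand) encodes an exonic enhancer binding protein that also acts in transcription elongation. It had 100.04, 121, 104 and 116 CPM in MARK3i libraries and 158, 151, 154 and 159 CPM in Control libraries (−0.49 ± 0.06, adjusted p = 3.59e-07), or 1.40-fold lower. MARK3i replicates 1 and 3 were the lowest, and the groups stood well apart. SRSF2 shares 27.7% of its exon length with MFSD11 on the opposite strand, and MFSD11 averaged 38.5 CPM in MARK3i and 29.2 CPM in Control (0.40 ± 0.08, adjusted p = 9.16e-05), the opposite direction to SRSF2.

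SRSF3 and SRSF7 are export adaptors that hand spliced mRNA to the receptor NXF1, and SRSF7 also carries a zinc knuckle. SRSF3 (chr6:36594353-36605600, plus strand) had 307, 288, 284 and 303 CPM in MARK3i libraries and 392, 381, 379 and 389 CPM in Control libraries (−0.38 ± 0.05, adjusted p = 8.21e-07). SRSF7 (chr2:38743599-38751494, minus strand) had 141, 147, 141 and 149 CPM in MARK3i libraries and 183, 189, 175 and 193 CPM in Control libraries (−0.36 ± 0.06, adjusted p = 5.48e-06). Both genes showed gaps between the groups larger than the spread within either group. The ratio of SRSF3 to SRSF7 counts, which no library scaling can move, was 2.19, 1.96, 2.02 and 2.03 in MARK3i libraries and 2.15, 2.02, 2.16 and 2.02 in Control libraries, with overlapping groups.

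SRSF10 (chr1:23964347-23980927, minus strand) encodes a protein that represses splicing when dephosphorylated, as in mitosis and after heat shock. It had 149, 144, 166 and 141 CPM in MARK3i libraries and 212, 198, 179 and 178 CPM in Control libraries (−0.36 ± 0.07, adjusted p = 5.42e-05). MARK3i replicate 3 and Control replicates 3 and 4 came closest to each other, without overlap. SRSF11 (chr1:70205682-70253052, plus strand), whose product interacts with the 3′ splice site factor U2AF, had 178, 187, 197 and 173 CPM in MARK3i libraries and 181, 177, 176 and 167 CPM in Control libraries. The groups overlapped, and the log2 change of 0.07 ± 0.06 did not pass the test (adjusted p = 0.284, 95% interval −0.04 to 0.19). It passed as higher with total counts (0.178, adjusted p = 0.011) and was at −0.084 with GC offsets (adjusted p = 0.156), so no direction is given for SRSF11.

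Ratios between the counts of SR genes are free of library scaling, and are given as descriptions of pairs picked with the changes known. Counts of SRSF5 were 5.30, 7.32, 6.03 and 6.75 times those of SRSF1 in MARK3i libraries and 2.39, 2.68, 2.76 and 2.91 times in Control libraries. The ratio of SRSF5 to SRSF6 was between 1.42 and 1.63 in MARK3i libraries and between 0.918 and 0.961 in Control libraries, and that of SRSF5 to SRSF4 was between 2.65 and 2.81 in MARK3i and between 1.61 and 1.85 in Control. SRSF10 to SRSF11 gave 0.771 to 0.843 in MARK3i libraries and 1.02 to 1.17 in Control libraries. None of these 4 ratios overlapped between the groups. For the ratios with SRSF5 this followed from the levels above and adds no separate result. In MARK3i libraries SRSF5 lay above, and SRSF1, SRSF4 and SRSF6 below, all Control libraries. How often ratios of other gene pairs overlap was not computed, so the ratio of SRSF10 to SRSF11 is a description only.

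Summed over the 10 genes, the level was 1677, 1788, 1761 and 1767 CPM in MARK3i libraries and 2037, 2006, 1954 and 1991 CPM in Control libraries. Without SRSF5 the sums were 1433 to 1481 CPM in MARK3i and 1748 to 1831 CPM in Control. The order of the genes was compared on levels per kilobase of exon, with the union of annotated exons as length. SRSF9 had the highest level in both groups, at 62.5 ± 1.89 CPM per kb in MARK3i and 71.4 ± 2.56 in Control (SD, n = 4). SRSF5 came next in MARK3i at 52.7 ± 5.29 CPM per kb and ranked 6 in Control at 38.5 ± 1.07. SRSF1 was the lowest in both, at 7.73 ± 0.339 CPM per kb in MARK3i and 13.4 ± 1.31 in Control. Exons of ENSG00000266086 cover 32.7% of the SRSF1 exon length on the same strand, and that gene had 0 counts in every library. How shared reads were counted is not given, so the level per kb and last rank of SRSF1 are uncertain.

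Several neighbours in this order could not be separated, meaning that their gap was within the sum of their SDs. In MARK3i these were SRSF3 and SRSF6, SRSF6 and SRSF2, SRSF2 and SRSF7, and SRSF10 and SRSF4. In Control they were SRSF3 and SRSF2, SRSF7 and SRSF6, and SRSF4 and SRSF1. SRSF5 made up 16.4% ± 1.13 of the summed level per kb in MARK3i and 10.4% ± 0.345 in Control, SRSF1 2.41% ± 0.175 in MARK3i and 3.60% ± 0.332 in Control, and SRSF2 11.5% ± 0.702 in MARK3i and 14.1% ± 0.288 in Control. With the longest coding transcript as length, SRSF9 was still first and SRSF1 last in both groups, and SRSF5 ranked 2 in MARK3i (100.3 ± 10.1 CPM per kb) and 4 in Control (73.2 ± 2.04 CPM per kb), where it could not be separated from SRSF7 at rank 3. The other pairs not separated with this length were SRSF11 and SRSF4, SRSF4 and SRSF6, and SRSF6 and SRSF2 in MARK3i, and SRSF2 and SRSF4, and SRSF4 and SRSF6 in Control.

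**Figure D3:**
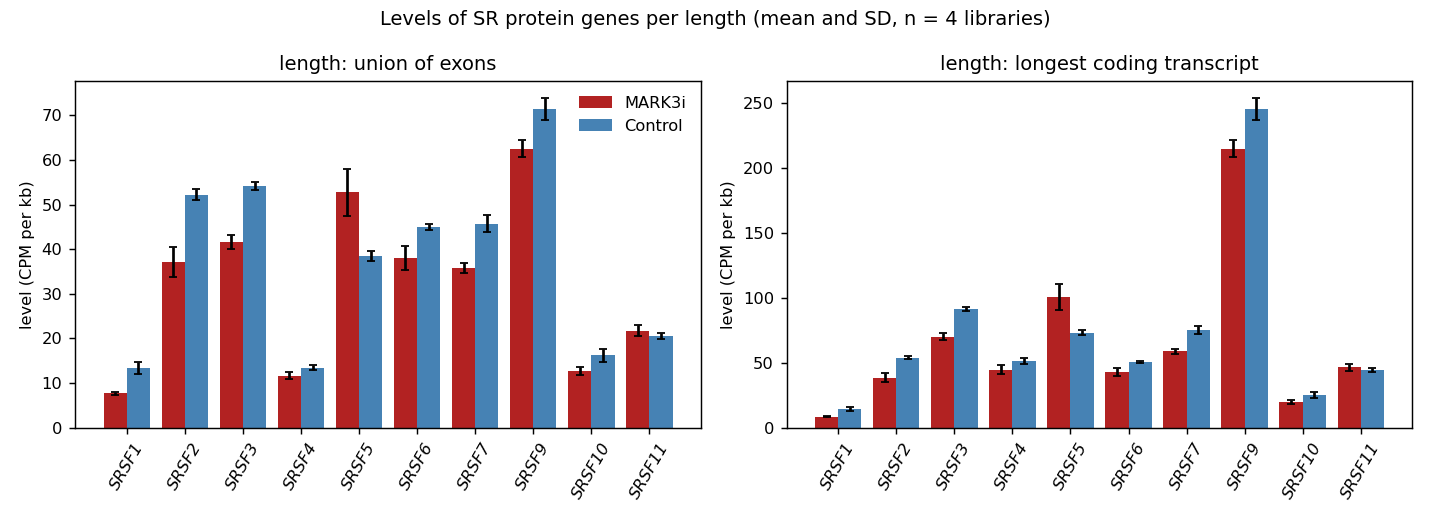
Level per length of each SR protein gene (y axis, CPM per kb) in MARK3i and Control (bars, mean with SD, n = 4 libraries), with the union of exons (left) or the longest coding transcript (right) as length. SRSF9 is the highest and SRSF1 the lowest with either length, and SRSF5 ranks 2 in MARK3i.

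The 10 genes share annotation features that bear on a gene-level count. Each has at least 1 transcript model marked for nonsense-mediated decay in GENCODE release 44, between 1 (SRSF5 and SRSF6) and 6 (SRSF7), and 9 have models with a retained intron, up to 8 in SRSF5. The share of exon length outside protein-coding models was 3.6% in SRSF1, 38.1% in SRSF5 and 73.9% in SRSF4, so a count can hold unproductive transcripts and the lengths above depend on the models used. Exons of SRSF9 overlap those of GATC on the opposite strand over 43.6% of their length, and the sources used here do not say whether reads were counted by strand, without which reads of these genes could not be told apart. GATC did not pass the test (−0.04 ± 0.07, adjusted p = 0.661, and 0.065 with total counts), and DYNLL1, which overlaps SRSF9 outside its exons, rose (0.27 ± 0.06, adjusted p = 0.000189). Pseudogenes named after the 10 genes held at most 5 counts in any library. GC content of the longest transcript was 35.9% (SRSF10) to 45.6% (SRSF2), below the median of 48.0% over tested genes.

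The genes that act on or with SR proteins were read against the whole table, in which 58% of tested genes were called, 28.3% lower and 29.8% higher. Of 11 kinase genes, 2 were higher, 4 lower and 5 not called (median 0.02), a share of calls near that of all genes. SRPK1, the main cytoplasmic SR kinase, averaged 64.0 ± 5.21 CPM in MARK3i and 90.9 ± 5.39 CPM in Control (−0.51 ± 0.07, adjusted p = 6.8e-07), whereas its paralog SRPK2 averaged 76.9 ± 4.36 CPM in MARK3i and 57.7 ± 5.96 CPM in Control (0.41 ± 0.07, adjusted p = 3.2e-05). The libraries overlapped in neither. DYRK1A, a nuclear kinase of splicing factors, rose (0.24 ± 0.07), and PRPF4B, a spliceosomal kinase (−0.35 ± 0.06), and AKT2, a kinase that acts upstream of SRPK (−0.26 ± 0.06), fell. With GC offsets DYRK1A was at 0.140 and AKT2 at −0.149, and AKT2 was also at −0.149 with total counts, all still called. None of CLK1, CLK2, CLK3 and CLK4, the nuclear SR kinases, named after their values were seen, passed, with log2 changes of 0.06, 0.01, 0.16 and 0.02. Their adjusted p-values were 0.478, 0.948, 0.0636 and 0.872. With total counts, 5 kinase genes were higher, and 63.6% of all called genes were higher under that scaling, against 51.3% with TMM.

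Among 5 catalytic subunit genes of the phosphatases PP1 and PP2A, which remove phosphate from RS tails, 2 were higher and 3 not called (median 0.12), against 29.8% of all tested genes called higher. All 5 were higher with total counts, the scaling that moves the median of all genes to 0.126. PPP2CB (0.31 ± 0.06) and PPP1CC (0.18 ± 0.05) rose, and PPP1CC was at 0.286 with total counts, while its call ended with GC offsets (0.101, adjusted p = 0.0756). Of 8 genes of SR protein import and mRNA export, 3 were higher, 3 lower and 2 not called (median −0.06), with 29.8% of all tested genes higher and 28.3% lower. TNPO3, the importin of SR proteins, averaged 144 ± 10.1 CPM in MARK3i and 111 ± 7.06 CPM in Control (0.37 ± 0.06, adjusted p = 2.14e-05). NXT1, the partner of the export receptor NXF1, averaged 13.3 ± 0.822 CPM in MARK3i and 25.4 ± 2.98 CPM in Control (−0.93 ± 0.10, adjusted p = 8.54e-09). The export adaptor gene ALYREF (−0.66 ± 0.06) and THOC2 of the THO complex (−0.44 ± 0.07) also fell. TNPO1 (0.24 ± 0.08) and NXF1 (0.25 ± 0.09) rose with overlapping libraries. The TNPO1 call ended with GC offsets (0.086, adjusted p = 0.175) and without MARK3i replicate 1 or 3 or Control replicate 3 or 4 (0.172 to 0.194, adjusted p = 0.0549 to 0.0687). The NXF1 call ended without MARK3i replicate 2 (0.156, adjusted p = 0.0917) or 4, or Control replicate 1 or 2.

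**Figure D4:**
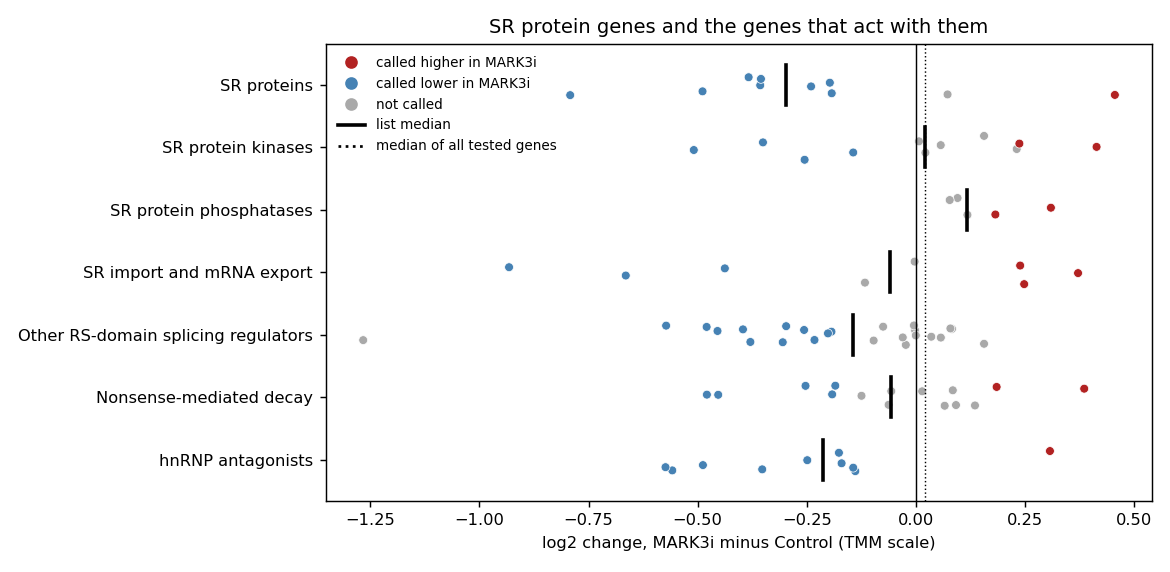
Log2 change (x axis, MARK3i minus Control, TMM scale) of the 10 SR protein genes and of 6 lists of genes that act with them (rows, 1 point per gene, black bar at the list median). The SR proteins, the hnRNP list and the other RS-domain regulators lie mostly below 0. The kinase, transport and decay lists have called genes on both sides.

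Of 24 other RS-domain splicing regulators, 11 were lower, 0 higher and 13 not called (median −0.15), against 28.3% lower, 29.8% higher and 58% called in all over the whole table. Under total counts 8 were lower and 2 higher, and with GC offsets 15 were lower and 1 higher. U2AF2, the large subunit of the polypyrimidine tract factor, fell (−0.57 ± 0.05, adjusted p = 1.71e-09), as did PNN, which encodes pinin (−0.48 ± 0.06), and RNPS1, an exon junction protein (−0.45 ± 0.06). The remaining SR family genes, named after their values were seen, were SRSF8, which was lower (−0.23 ± 0.07, adjusted p = 0.00571), and SRSF12, which did not pass at 1.72 CPM in MARK3i and 1.65 CPM in Control. U2AF1, also named after its values were seen, has a near-identical copy in hg38 and had 6.36 ± 4.91 CPM in MARK3i and 14.96 ± 15.01 CPM in Control, a spread that leaves it undetermined.

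Of 15 genes of nonsense-mediated decay and the exon junction complex, 2 were higher, 5 lower and 8 not called (median −0.06), against 29.8% higher, 28.3% lower and 58% called over the whole table. Under total counts 6 were higher and 3 lower. UPF1, the decay helicase, averaged 115 ± 2.97 CPM in MARK3i and 160 ± 3.70 CPM in Control (−0.48 ± 0.05, adjusted p = 5.2e-08). The junction genes MAGOHB (−0.45 ± 0.07) and EIF4A3 (−0.25 ± 0.06, and −0.149 with total counts) fell, and SMG8 rose (0.39 ± 0.10). SMG6 was higher (0.18 ± 0.08, adjusted p = 0.0441), a call that ended with RLE scaling, DESeq2, no filter or the replicate block and without 6 of the 8 libraries (adjusted p up to 0.131), and was at 0.290 with total counts.

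Of 10 hnRNP genes, whose products often oppose SR proteins at exons, 9 were lower and HNRNPH1 was higher (median −0.21), against 28.3% lower and 29.8% higher over the whole table. Under total counts 4 were lower and 1 higher. HNRNPF (−0.57 ± 0.06), HNRNPA3 (−0.56 ± 0.06) and PTBP1 (−0.49 ± 0.05, with 350.1 ± 10.3 CPM in MARK3i and 491 ± 12.9 CPM in Control) fell. HNRNPH1 averaged 481 ± 13.7 CPM in MARK3i and 389 ± 6.54 CPM in Control (0.31 ± 0.05, adjusted p = 1.57e-05). With GC offsets HNRNPH1 was at 0.148 (adjusted p = 0.0138) and PTBP1 at −0.322 (adjusted p = 1.2e-05). MYC, whose product is known to activate SRSF1 transcription, averaged 32.8 CPM in MARK3i and 378.3 CPM in Control (−3.53 ± 0.07). Its part in the lower SRSF1 level was not tested.

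Genes with the most similar course over the 8 libraries were found by the root mean square difference of log2 CPM, each gene centred on its own mean, among 10274 other genes of at least 10 CPM. For SRSF1 these were SLC39A14 (difference 0.0497, log2 change −0.73), SINHCAF (0.0546, −0.81) and PTPRJ (0.0577, −0.73). For SRSF5 they were STRADB (0.0346, 0.48), PPM1B (0.0489, 0.44) and IRAK4 (0.0537, 0.41). Likeness here rests mainly on the difference between the groups, which these genes share with many others.

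**Figure D5:**
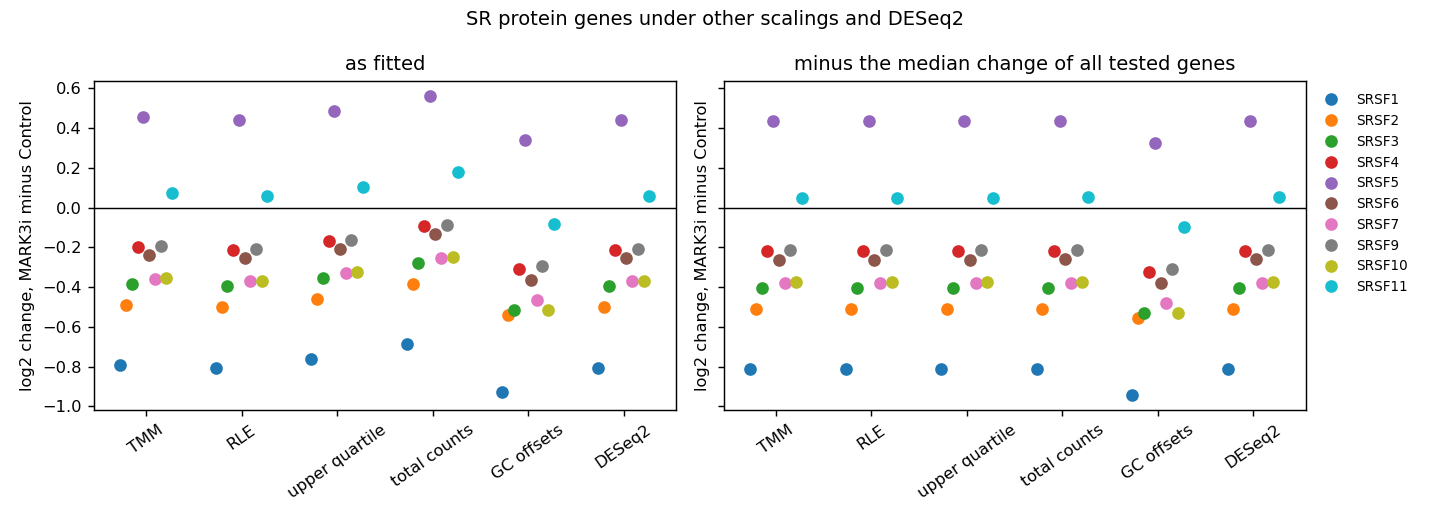
Log2 change (y axis, MARK3i minus Control) of each SR protein gene (colours) under 4 library scalings, offsets for GC content, and DESeq2, as fitted (left) and minus the median change of all tested genes (right). SRSF1 is the lowest and SRSF5 the highest under each, and SRSF11 changes sign with GC offsets. The order of the genes and the values on the right are alike under the 4 scalings by construction.

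Relative to the median change of all tested genes, 8 of the 10 SR genes lay below it and 2 above it with TMM, RLE, upper-quartile and total-count scaling and with DESeq2, and 9 and 1 with GC offsets. SRSF1 was between −0.941 and −0.812 relative to that median over these 6 fits, and SRSF5 between 0.327 and 0.436. The library scalings shift all genes by nearly the same amount, so their agreement here was fixed in advance and adds no support. DESeq2 gave nearly the same values as RLE scaling (SRSF1 at −0.812 and −0.813), whereas GC offsets move genes by different amounts.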

How the data were processed

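The authors aligned reads to hg38, counted them per gene with featureCounts and used DESeq2, per the series' design text. The deposited values are whole-number counts. The sources used here name no aligner, annotation, strand setting, version or filter. Groups and replicate numbers come from the sample titles. Of 58735 identifiers, 58207 were found in GENCODE release 44, which gave symbols, coordinates, lengths and GC content.

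The test was that of edgeR 4.0.16 (R 4.3.3), with filterByExpr, TMM factors, robust glmQLFit and glmQLFTest on the group alone, all 8 libraries together. Standard errors are the absolute log2 change over the square root of F, and levels are CPM on the TMM scale. Replicate pairs differed by more than sampling noise (chi-square per degree of freedom 1.708 to 9.796 within groups). The procedure was tested on simulated data, but no outcome is given here and no result rests on it. Other settings tried were scaling by RLE, upper quartile or total counts, no filter or 1 CPM in 4 libraries, DESeq2 1.42.0, limma-voom 3.58.1, a replicate block, offsets for transcript GC content, each library left out, and another gene length.

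Genes and lists were chosen with earlier results of these data known. Named were all 10 SR genes, up to 3 called genes per direction with the smallest p from each list, MYC, tested genes overlapping an SR gene, and the 3 nearest profiles of the SR gene with the largest fall and rise. CLK1 to CLK4, SRSF8, SRSF12, U2AF1, ENSG00000266086 and the marker genes stand outside this rule. Of the overlapping genes, the low ENSG00000279069 and NRAV did not pass (adjusted p = 0.386 and 0.139).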

Additional observations from a re-analysis of the deposited data

How the results depend on the processing

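The numbers of SR genes lower (8) and higher (1) were the same in 16 of 17 alternatives. With total counts they were 5 and 2. The number of called genes over the whole table ranged from 8867 to 9870, and from 8867 to 9347 when single libraries were left out. Of 170 gene values over these alternatives, 165 kept their direction and call. The others were SRSF4, SRSF6, SRSF9 and SRSF11 with total counts and SRSF11 with GC offsets, which was at −0.084. GATC, which overlaps SRSF9, was at 0.065 with total counts. Total-count scaling moves every value up by construction, since treated libraries had TMM factors of 1.011 to 1.059 and Control libraries 0.960 to 0.968. GC offsets remove each library's trend on GC content, and the SR genes, at 35.9% to 45.6%, lie below the median of 48.0%. The origin of that trend was not tested. With the replicate block, SR genes called lower and higher stayed at 8 and 1. Replicate numbers did not pair the libraries. Deviations from the group means correlated at 0.292, −0.316, −0.285 and 0.331 for numbers 1 to 4, and MARK3i replicates 2 and 3 correlated best with another number. MARK3i replicates 1 and 3 deviated with Control replicates 1 and 2 (0.242 to 0.360), and MARK3i replicates 2 and 4 with Control replicates 3 and 4 (0.323 to 0.381). With another gene length, levels per kb moved beyond 1 SD in 9 of 10 genes. At this depth the SR genes held 634 to 6889 counts per library, and the median SE of a log2 change over all tested genes was 0.10.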
